A study of Homo sapiens with 9 samples.

Results

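Uridine phosphorylase UPP1 and the enzymes that handle pyrimidines and fluorouracil were described by 21 probe sets of the 54675 on the array, those annotated to exactly 1 of the symbols UPP1, TYMP, TYMS, DPYD, UMPS, UCK1, UCK2, TK1, CDA and DUT. They covered 9 of the 10 genes. UCK2 was left out because both of its probe sets also carry the symbol of a microRNA gene within it, MIR3658. UPP1 was chosen by its measured signal on these same arrays, and the other 9 genes were grouped with it by function with results of these arrays already known. The levels of all members are therefore given as a description, with array values and standard errors and with no p.

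The arrays measured total RNA of SW480/EGFP cells, a human colorectal carcinoma line that carries the green fluorescent marker EGFP, and of SCP51 and SCP58, 2 lines derived from single cells of it. All 9 samples share the EGFP-carrying SW480 background and the same culture medium, and the labels name no drug. SCP51 is labelled as having a high and SCP58 a low metastatic potential, judged by implanting the lines at the site of origin in mice, so each metastatic class is represented by 1 line. Each group has 3 arrays, labelled as biological replicates without saying how separate their cultures were, so a p-value speaks only of how these arrays scatter. The unit is the deposited signal, a linear intensity, and differences are on the log2 scale, where 1 unit is a doubling.

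UPP1 splits uridine into uracil and ribose phosphate and is the enzyme that begins uridine breakdown, while uridine that is not broken down can be turned back into nucleotides by the uridine-cytidine kinases UCK1 and UCK2. Fluorouracil, a mainstay of drug treatment of colorectal cancer, enters cells as an inactive base and is made into nucleotides by UMPS directly or by UPP1 and TYMP followed by UCK1, UCK2 or TK1. One of its products blocks thymidylate synthase, TYMS, which makes the thymidine nucleotide needed for DNA. DPYD degrades uracil and fluorouracil, CDA deaminates cytidine and its analogues, and DUT breaks down dUTP so that little uracil enters DNA.

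The sequence just before the first of the 3 start sites that RefSeq gives UPP1 is shown because UPP1 carried the largest difference among the members. It spans chr7:48088454-48088703 on the plus strand of build GRCh38.p14, holds 250 bases upstream of the gene and no transcribed base, and is printed 5′ to 3′.

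UPP1 upstream window: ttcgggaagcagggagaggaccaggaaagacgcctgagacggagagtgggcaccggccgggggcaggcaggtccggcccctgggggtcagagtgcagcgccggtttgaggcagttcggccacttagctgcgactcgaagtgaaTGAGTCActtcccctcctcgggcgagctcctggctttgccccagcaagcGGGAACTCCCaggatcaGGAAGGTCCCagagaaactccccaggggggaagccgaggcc

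The capitals mark 1 match to the AP-1 motif TGANTCA, whose first base lies 107 bases before the start, and 2 matches to a kappa B consensus, at 58 and 41 bases before it. No match overlaps another, and both strands were searched. The motifs were picked after this sequence had been read. Of 35116 windows of 250 bases before all annotated starts, 6.57% held the AP-1 motif and 9.96% the kappa B consensus. The GC box GGGCGG, present in 42.6% of all windows, had 0 matches here. The other UPP1 starts lie 550 and 561 bases downstream, and their windows held 3 GC boxes each but neither of the other motifs. Among 18 windows of the 10 member genes, only this UPP1 window held the AP-1 motif. The kappa B consensus was in 2 of the 18, those of UPP1 and CDA, and the GC box in 12 windows of 6 genes. A match describes letters and not a site in use, and no binding was measured.

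Facts of the arrays that bear on these values are few. Array medians lay between 41.2 and 44.3. SCP51 replicate 1 stood apart, correlating with the other arrays at 0.891 to 0.911 across genes, against 0.973 to 0.979 for each other array with its nearest neighbour; genes are not independent replicates. On that array the GAPDH probes at the 3′ end gave 0.761 of the signal of those at the 5′ end, against 0.894 to 0.957 on the others. The same ratio for ACTB was 1.08, inside the range of 0.938 to 1.16 on the others. Of 9 colorectal epithelial markers 7 lay above the array median on every array, EPCAM, KRT8, KRT18 and KRT19 among them. CDX2 was the dimmest of these at 45.5 to 58.2. CDH17 lay above the median on 3 arrays, and KRT20 lay under it on all arrays. The summed signal of these markers was 18870 to 24475 in SCP51, 19977 to 21006 in the parent and 19209 to 21150 in SCP58. The summed markers of fibroblasts (6 genes) reached at most 345, those of leukocytes (4 genes) 548 and those of endothelium (3 genes) 140. CD79A, CD3D, COL1A1 and VWF lay above the median on all arrays. CD79A was the brightest of them at 197 to 393, with COL1A1 at 126 to 172, VWF at 61.7 to 88.2 and CD3D at 49.2 to 100. DCN lay above the median on 8 arrays, PECAM1 on 6 and PDGFRB on 2. PTPRC, CD14, COL1A2, COL3A1, LUM and CDH5 lay under it on all arrays. In bulk RNA, fewer cells that hold a transcript and less of it per cell cannot be told apart.

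UPP1 was low in the highly metastatic line SCP51 and high in the other groups. Its single probe set gave a signal of 151, 176 and 208 on the SCP51 arrays. The parent gave 637, 1546 and 1212. SCP58 gave 555, 1401 and 778. Every SCP51 array lay below every parent and SCP58 array, whereas the parent and SCP58 arrays overlapped. The mean log2 signal was 7.47 ± 0.23 (SD, n = 3) in SCP51, 10.05 ± 0.66 (SD, n = 3) in the parent and 9.72 ± 0.68 (SD, n = 3) in SCP58. The order was thus parent, SCP58, SCP51, and the first and the second did not differ beyond their spread.

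**Figure D1:**
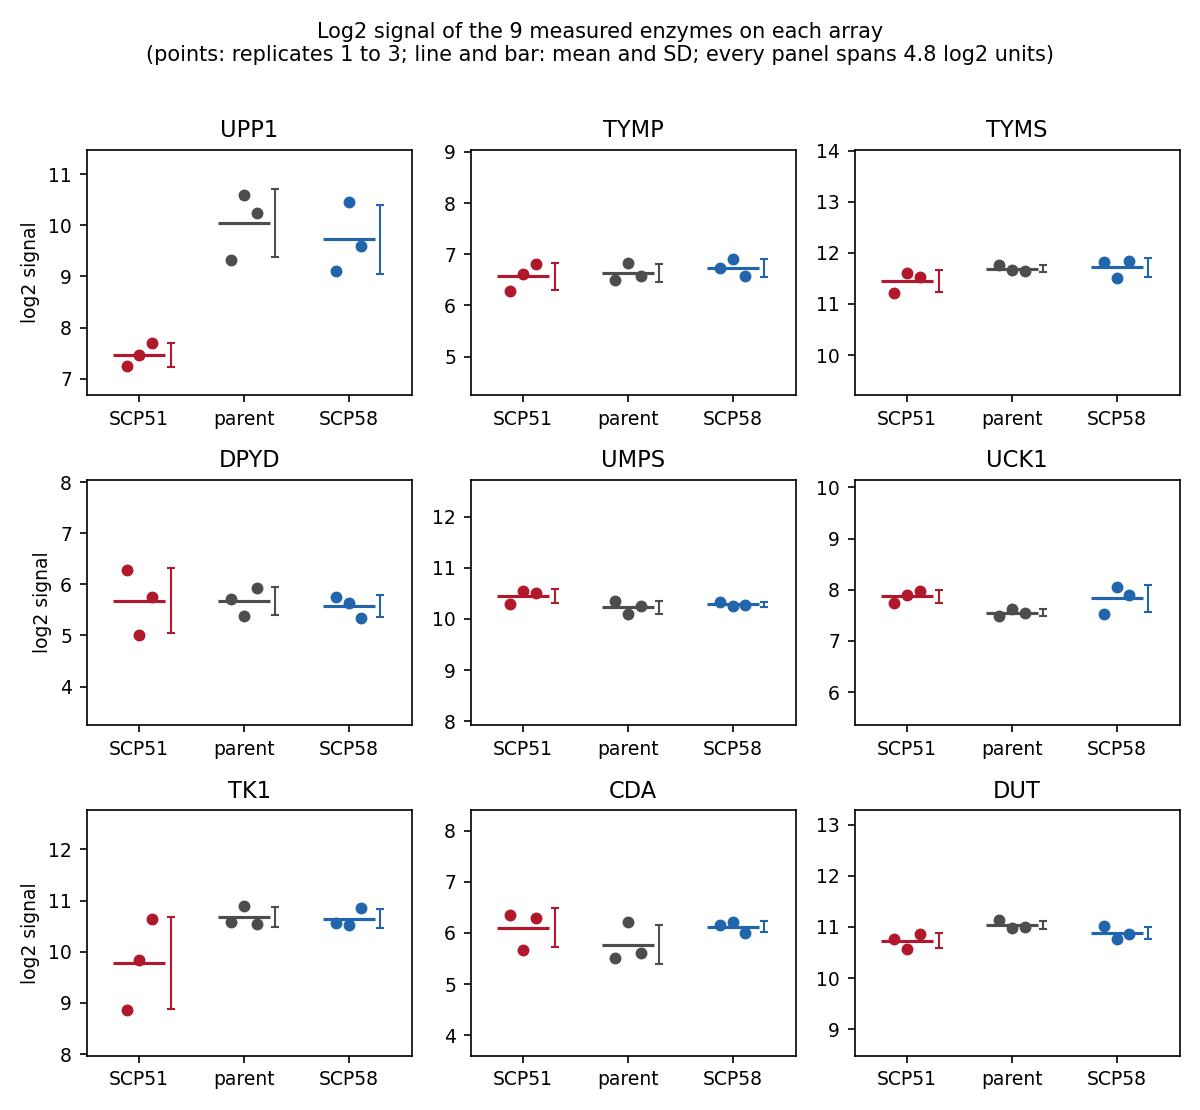
Log2 signal (vertical axis) of the gene-level probe set of each of the 9 measured enzymes on each array, in 1 panel per gene that spans the same number of log2 units, with groups along the horizontal axis, 1 point per array, a line at the group mean and a bar of 1 SD to each side. UPP1 averages 7.47 in SCP51 against 10.05 in the parent and 9.72 in SCP58, while the groups of the other enzymes lie close together apart from TK1, which averages 9.78 ± 0.89 (SD, n = 3) in SCP51.

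UPP1 was 4.78-fold lower in SCP51 than in SCP58, a log2 difference of -2.26 ± 0.40 (SE from the limma model over 9 arrays). Against the parent it was 5.99-fold lower, a log2 difference of -2.58 ± 0.40 (SE). Between SCP58 and the parent the log2 difference was -0.33 ± 0.40 (SE), less than its error. Among the 13598 genes tested, the UPP1 difference ranked 12 from the lowest in SCP51 against SCP58 and 9 from the lowest in SCP51 against the parent, but 945 in SCP58 against the parent. The gene also varied more than most inside the groups where it was high. Its SD was larger than that of 98.1% of genes in the parent and 97.2% in SCP58, but of 53.5% in SCP51. Without SCP51 replicate 1, the array that stands apart, the log2 differences of UPP1 were -2.14 against SCP58 and -2.47 against the parent. Across 17 other ways of treating the values or the arrays they stayed between -2.56 and -1.89 against SCP58 and between -2.95 and -2.31 against the parent. Several of these ways could not change the UPP1 difference. Among them were dropping the filter, averaging the probe sets of a gene that has only 1, and leaving out an array of the group not compared. The ends of both ranges came from leaving out 1 array.

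Genes are called at a limma p, adjusted by Benjamini-Hochberg over all genes tested, under 0.05. Of all genes, 4.08% were called between SCP51 and SCP58, and of the 9 measured members 1 was, UPP1. Between SCP51 and the parent 2.96% of all genes and 1 of the 9 members, again UPP1, were called. Between SCP58 and the parent 0.14% of all genes and 0 of the 9 members were called, none of them reaching an unadjusted p under 0.05. Nothing is read from these counts, since UPP1 was chosen on the same values. The count of members against SCP58 was 0 without SCP51 replicate 2, without SCP58 replicate 2 or 3, and in a model of only the 6 arrays compared. Against the parent it was 0 without SCP51 replicate 2 or parent replicate 2 or 3. It was 2 in both comparisons without SCP51 replicate 3, UPP1 and TK1.

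Groups that did not overlap were common among all genes, at 25.1% for SCP51 against SCP58, 28.1% for SCP51 against the parent and 17% for SCP58 against the parent. Of the members, UPP1 alone did not overlap between SCP51 and SCP58. Between SCP51 and the parent 4 of 9 did not overlap, UPP1, TYMS, UCK1 and DUT. Between SCP58 and the parent all 9 overlapped. The median difference of the 9 was -0.15 for SCP51 against SCP58, beside -0.11 over all genes. It was -0.07 against the parent, beside -0.10 over all genes. Both all-gene medians lay below 0, and after quantile normalization they were -0.05 and -0.04.

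**Figure D2:**
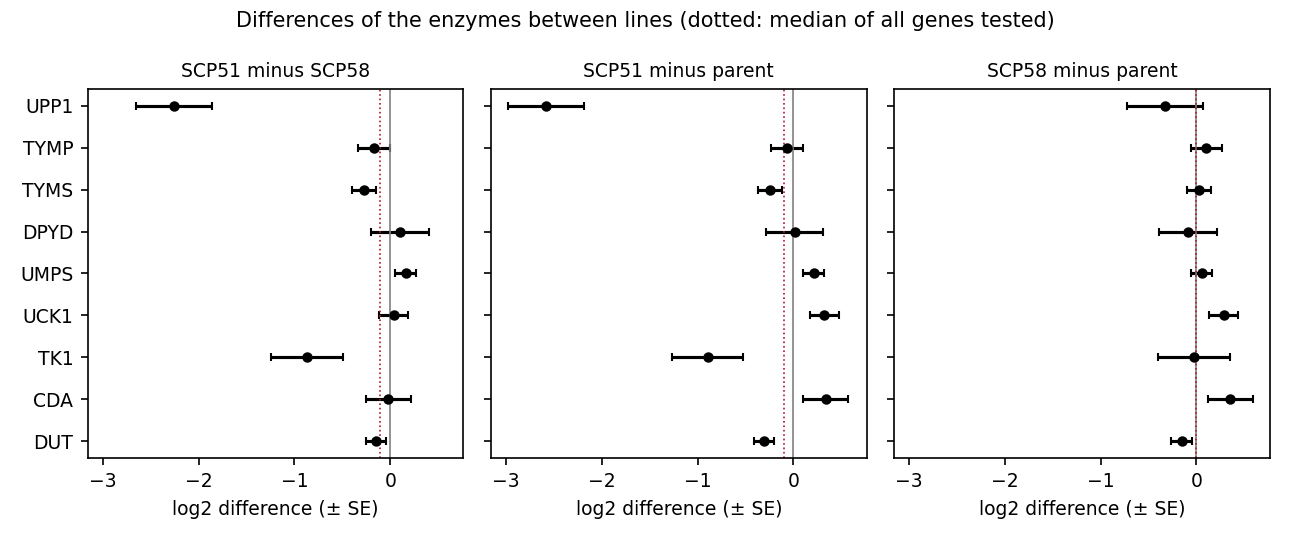
Log2 difference of each of the 9 measured enzymes (horizontal axis) for the 3 comparisons, with bars of 1 SE from the limma model over 9 arrays, a line at 0 and a dotted line at the median of all genes tested. UPP1 stands at -2.26 and -2.58 in the SCP51 comparisons, and the other 8 enzymes lie between -0.90 and 0.35.

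TYMP, thymidine phosphorylase, performs for thymidine the reaction that UPP1 performs for uridine. Its signal was 77.7, 97.9 and 112 in SCP51, 90.3, 114 and 95.0 in the parent, and 106, 121 and 94.7 in SCP58. The 3 groups overlapped. The log2 difference was -0.17 ± 0.17 (SE) for SCP51 against SCP58 and -0.07 ± 0.17 (SE) against the parent, about the size of its error or smaller. Without SCP51 replicate 1 the difference from the parent was 0.08. The dimmer TYMP probe set gave 28.8, 56.5 and 45.8 in SCP51 and 42.5 to 47.0 in the parent, so here SCP51 spanned the range of the parent. The related phosphorylase UPP2 lay under the median of every array, at 6.05 to 11.8, and was not tested.

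The enzymes that add phosphate or ribose phosphate to the base or nucleoside differed less than UPP1. UMPS, which makes UMP in the last steps of pyrimidine synthesis and converts fluorouracil directly, had 4 probe sets, of which 2 passed the filter on low values. Its brighter probe set gave 1248, 1497 and 1450 in SCP51, 1298, 1092 and 1222 in the parent, and 1289, 1217 and 1234 in SCP58. The lowest SCP51 array lay within the range of both other groups, and the other SCP51 arrays lay above it. The log2 difference was 0.16 ± 0.11 (SE) against SCP58 and 0.22 ± 0.11 (SE) against the parent. The second UMPS probe set gave 817, 1129 and 1213 in SCP51 and 922 to 1124 in the parent, with overlap, and its lowest value was that of SCP51 replicate 1.

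UCK1, which phosphorylates uridine and cytidine, gave 213, 239 and 251 in SCP51, 179, 196 and 186 in the parent, and 185, 266 and 239 in SCP58. SCP51 lay above the parent without overlap and within the range of SCP58. The log2 difference was 0.32 ± 0.15 (SE) against the parent and 0.04 ± 0.15 (SE) against SCP58. SCP58 was 0.28 ± 0.15 (SE) above the parent, with overlap. The second, dimmer UCK1 probe set also lay above the parent in SCP51 on every array, at 86.0 to 89.7 against 70.8 to 80.5.

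TK1, the cytosolic thymidine kinase of dividing cells, was the most scattered member in SCP51. Its brighter probe set gave 465, 917 and 1594 on the SCP51 arrays, 1532, 1912 and 1493 in the parent, and 1514, 1471 and 1852 in SCP58. The lowest value came from SCP51 replicate 1, and the highest SCP51 value lay inside the range of both other groups. The log2 difference was -0.87 ± 0.37 (SE) against SCP58 and -0.90 ± 0.37 (SE) against the parent, and -0.41 and -0.44 without SCP51 replicate 1. The other TK1 probe set gave 1529, 1188 and 1167 in SCP51, 1091, 1372 and 1132 in the parent, and 1295, 1132 and 1031 in SCP58. It overlapped in all groups, with differences of 0.16 against SCP58 and 0.11 against the parent. The TK1 probe sets therefore disagreed in direction, and no direction is given for the gene.

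TYMS, the target enzyme, was measured by 3 probe sets that all passed the filter. The brightest gave 2371, 3107 and 2957 in SCP51, 3492, 3224 and 3198 in the parent, and 3609, 2904 and 3659 in SCP58. SCP51 lay below the parent without overlap and overlapped SCP58. The log2 difference was -0.24 ± 0.13 (SE) against the parent and -0.27 ± 0.13 (SE) against SCP58. The lowest SCP51 array was replicate 1, and without it the TYMS differences were -0.12 and -0.15. The second TYMS probe set pointed the same way, with differences of -0.21 and -0.15, while the dimmest, at 72.4 to 105, pointed the other way at 0.25 and 0.18. Averaging all probe sets of TYMS gave a difference from the parent of -0.07, so its lower signal rested on the brighter probe sets.

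DUT, which removes dUTP and so limits uracil in DNA, had the same pattern in each of its 3 probe sets. The brightest gave 1731, 1522 and 1860 in SCP51, 2236, 2009 and 2058 in the parent, and 2067, 1748 and 1854 in SCP58. The second gave 824, 939 and 1106 in SCP51 and 1470, 1304 and 1253 in the parent. The dimmest gave 99.4, 101 and 105 in SCP51 and 191, 120 and 162 in the parent. In each of the 3, every SCP51 array lay below every parent array. The log2 differences from the parent were -0.30, -0.50 and -0.60 from the brightest to the dimmest probe set, with an SE of 0.11 for the brightest. Probe sets of 1 gene read the same RNA and are not replicates. SCP58 lay between the other groups and overlapped both by the brightest DUT probe set, which differed by -0.15 ± 0.11 (SE) between SCP51 and SCP58. Under quantile normalization the difference of the brightest from the parent was -0.24, beside an all-gene median of -0.04.

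**Figure D3:**
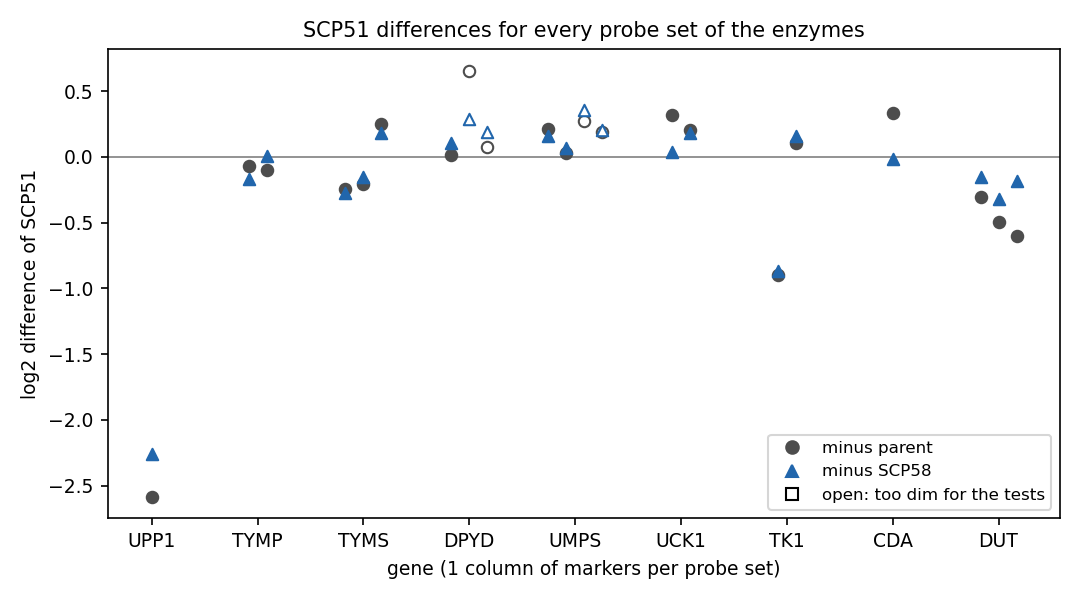
Log2 difference (vertical axis) of SCP51 from the parent (circles) and from SCP58 (triangles) for every probe set of the measured enzymes, grouped by gene along the horizontal axis, with open markers for probe sets that did not pass the filter on low values. The 3 DUT probe sets lie at -0.30 to -0.60 against the parent, the TK1 probe sets at -0.90 and 0.11, and the TYMS probe sets on both sides of 0.

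DPYD, the enzyme that begins the breakdown of uracil and fluorouracil, was dim. Of its 3 probe sets 1 passed the filter, and the others lay under the median on all 9 arrays. The one that passed gave 77.4, 32.3 and 54.0 in SCP51, 52.1, 41.5 and 60.6 in the parent, and 53.7, 50.0 and 40.6 in SCP58. The SCP51 arrays spanned the whole range of the others. The differences were 0.10 ± 0.30 (SE) against SCP58 and 0.01 ± 0.30 (SE) against the parent, and without SCP51 replicate 1 they were -0.19 and -0.28. DPYS, the next enzyme of that path, lay under the median on every array and was not tested.

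CDA, cytidine deaminase, gave 81.9, 50.9 and 78.1 in SCP51, 45.3, 73.8 and 48.4 in the parent, and 71.3, 73.9 and 64.3 in SCP58. All 3 groups overlapped. The log2 difference was -0.02 ± 0.23 (SE) against SCP58 and 0.34 ± 0.23 (SE) against the parent, and SCP58 differed from the parent by 0.35 ± 0.23 (SE). The CDA differences were -0.14 and 0.21 without SCP51 replicate 1, in the order SCP58 and parent. In SCP51 the lowest array was replicate 2, and in the parent the highest was replicate 2.

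Over the 9 arrays the members did not follow UPP1 as 1 group. The Pearson correlation of the log2 signal with that of UPP1 was 0.71 for TK1, 0.53 for DUT, 0.48 for TYMS and 0.48 for TYMP. The TK1 value is that of the probe set whose lowest signal was SCP51 replicate 1, and the other TK1 probe set differed in the opposite direction. Member correlations without that array were not computed. For UCK1 it was -0.24, for CDA -0.15 and for DPYD -0.14, and UMPS was the most opposed at -0.76. The arrays come in 3 groups, so these values carry the difference between groups as well as the spread within them, and they are given as a description.

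Among the 13597 other genes, those whose log2 signal was most like that of UPP1 over the 9 arrays were AP1M2, a clathrin adaptor subunit of epithelia, with an r of 0.975, MOCOS, the molybdenum cofactor sulfurase, with 0.965, and the zinc finger gene ZFP64 with 0.961. They were followed by the ferritin pseudogene FTH1P5 and the syntenin gene SDCBP, each with 0.955. A pseudogene probe set can read transcripts of its parent gene, so the FTH1P5 value is uncertain. Without SCP51 replicate 1 these 5 correlations lay between 0.939 and 0.968. AP1M2 moved far less than UPP1, with mean log2 signals of 7.95 in SCP51, 8.40 in the parent and 8.33 in SCP58. MOCOS had 7.25, 8.05 and 7.98 in the same order.

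The genes most opposed to UPP1 were the pseudogene CD99P1 with an r of -0.970, ENC1, which encodes a kelch-repeat protein, with -0.968, and CYP24A1, the enzyme that inactivates vitamin D, with -0.965. The pseudogene PMS2P2 had -0.954 and TRAPPC2, a subunit of a vesicle tethering complex, -0.947. As for FTH1P5, the values of the pseudogenes CD99P1 and PMS2P2 are uncertain. CYP24A1 had a mean log2 signal of 8.37 in SCP51, 5.04 in the parent and 5.45 in SCP58, so it was high where UPP1 was low. As with UPP1, its largest gap lay between SCP51 and the rest. Outside SCP51, CYP24A1 and PMS2P2 gave signals near or under the array medians, where values are uncertain. Both genes needed their SCP51 arrays, where they were high, to pass the filter on low values.

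**Figure D4:**
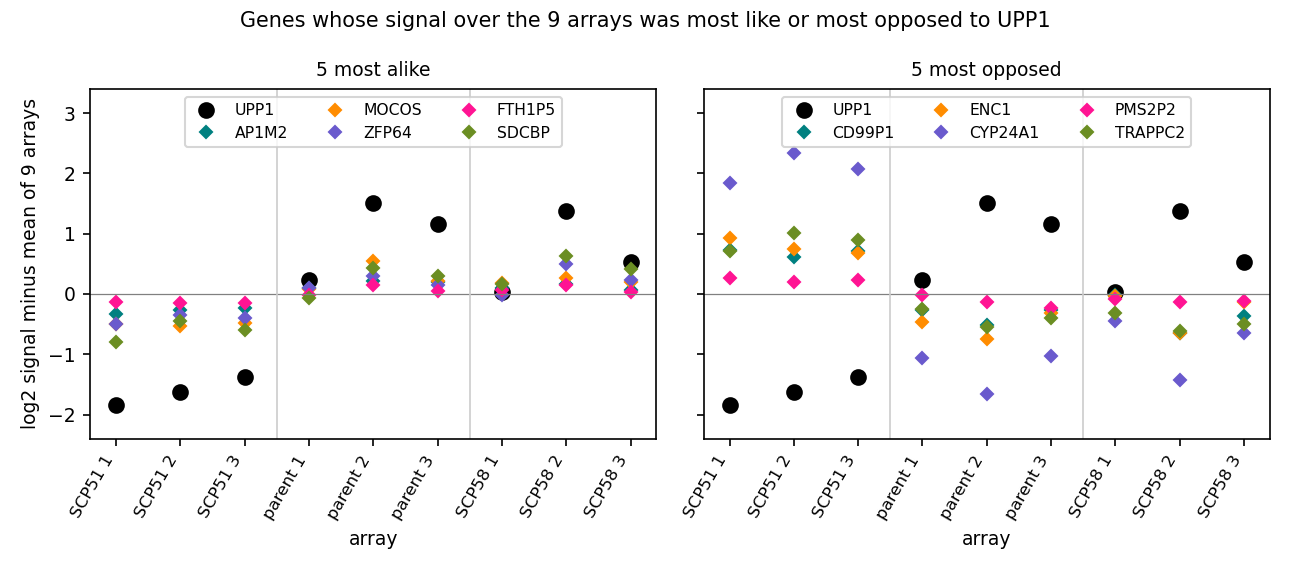
Log2 signal minus the mean of the 9 arrays (vertical axis) on each array (horizontal axis) for UPP1 and for the 5 genes most like it on the left and the 5 most opposed on the right. The SCP51 arrays are apart from the other 6 in every gene shown, with correlations to UPP1 from 0.955 to 0.975 on the left and from -0.970 to -0.947 on the right.

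The other genes of pyrimidine metabolism were taken from lists of 57 symbols that hold no member. Of these, 54 had a probe set of their own and 49 passed the filter. Against SCP58, 1 rose in SCP51 and 1 fell, beside the 4.08% of all genes called. Against the parent 1 rose and 1 fell, beside 2.96%. Between SCP58 and the parent 0 of the 49 were called by limma, and 3 had an unadjusted p under 0.05. The median difference of the 49 was -0.09 against SCP58, beside -0.11 over all genes, with 32 of the 49 below 0. It was -0.18 against the parent, beside -0.10 over all genes, with 38 below 0. Without SCP51 replicate 1 these medians were -0.03, with 28 below 0, and -0.09, with 31 below 0, beside -0.05 for each comparison over all genes.

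The called gene of the folate cycle was GGH, gamma-glutamyl hydrolase, which trims the glutamate tail that keeps folates and antifolates inside cells. Its signal was 334, 242 and 282 in SCP51, 631, 610 and 630 in the parent, and 602, 660 and 638 in SCP58. Every SCP51 array lay far below the others, and the parent and SCP58 arrays overlapped. GGH fell by 1.16 ± 0.14 (SE) on the log2 scale against SCP58 (limma adjusted p = 0.0052) and by 1.14 ± 0.14 (SE) against the parent (limma adjusted p = 0.00494). It remained called in both comparisons under all 17 alternatives, with an adjusted p of at most 0.0426 and 0.0337. GGH lies on chromosome 8, where 74 of the 473 genes tested were called lower and 8 higher in SCP51 than in SCP58. Among all 13598 genes 354 were called lower and 201 higher in that comparison. The chromosome 8 median was -0.26 beside -0.11 over all genes. Against the parent 59 of the 473 were called lower and 4 higher, beside 215 lower and 187 higher among all genes, again with a chromosome 8 median of -0.26. The part of the chromosome in the GGH result was not tested. Apart from GGH none of the 8 folate genes tested was called.

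PRPS2, which makes the phosphoribosyl donor that UMPS uses, was the called gene of the list of pyrimidine synthesis from small precursors. Its signal was 1049, 1156 and 1044 in SCP51, 756, 569 and 721 in the parent, and 625, 663 and 798 in SCP58. PRPS2 rose by 0.65 ± 0.15 (SE) in SCP51 against SCP58 (limma adjusted p = 0.0498). Against the parent the difference was 0.68 ± 0.15 (SE), just missing the threshold (limma adjusted p = 0.0501). The call against SCP58 was lost under 10 of 17 alternatives, whose adjusted p spanned 0.0185 to 0.170. It was lost without any single SCP58 array (limma adjusted p of 0.116, 0.170 and 0.0703 for replicates 1, 2 and 3), without SCP51 replicate 2 (0.145) or 3 (0.0757) and without parent replicate 1 (0.0721) or 3 (0.0920).

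NT5E, the surface nucleotidase CD73 that turns AMP into adenosine outside cells, was the called gene among deaminases and phosphatases. Its signal was 957, 1125 and 912 in SCP51, 500, 572 and 691 in the parent, and 751, 705 and 882 in SCP58. NT5E rose by 0.77 ± 0.16 (SE) in SCP51 against the parent (limma adjusted p = 0.0422), and SCP58 lay between the groups without overlap. Against SCP58 the difference was 0.36 ± 0.16 (SE) and did not pass (limma adjusted p = 0.238). The call against the parent was lost under 12 of 17 alternatives, with adjusted p from 0.0242 to 0.147. It was lost without parent replicate 1, 2 or 3 (limma adjusted p of 0.147, 0.131 and 0.0630), without SCP58 replicate 1, 2 or 3 (0.0608, 0.0666 and 0.0565) and without SCP51 replicate 2 (0.137) or 3 (0.0507). Averaging the probe sets of NT5E gave a difference of 0.51 (limma adjusted p = 0.119).

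**Figure D5:**
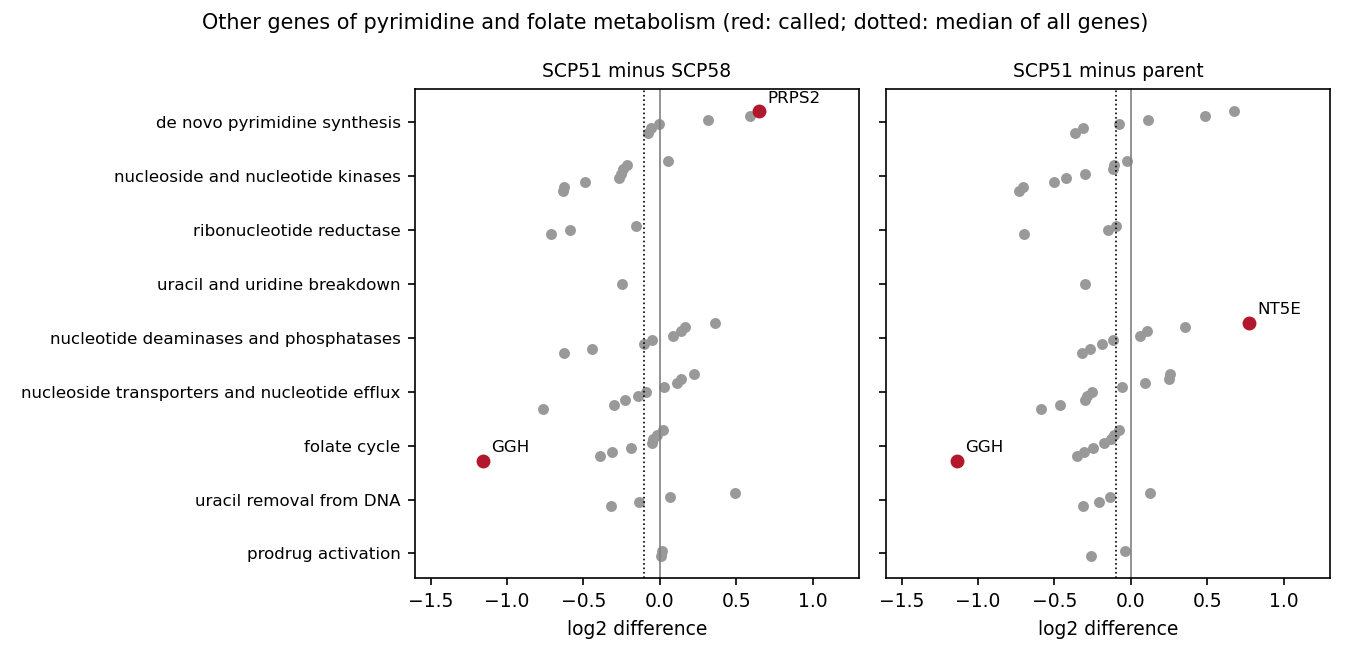
Log2 difference of the 49 tested pathway genes (horizontal axis) for SCP51 against SCP58 and against the parent, 1 point per gene, grouped by list (vertical axis), with called genes in red and a dotted line at the median of all genes tested. GGH lies at -1.16 and -1.14, PRPS2 at 0.65 against SCP58 and NT5E at 0.77 against the parent, and the other points lie between the called genes.

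No gene of the remaining lists was called in any comparison by limma. Of the 8 nucleoside and nucleotide kinases that were tested, all 8 lay below 0 against the parent, with a median of -0.36 beside -0.10 over all genes, and 7 of 8 against SCP58, with a median of -0.26 beside -0.11. Without SCP51 replicate 1, 7 of 8 lay below 0 in each comparison, with medians of -0.26 and -0.29. Their brightest members were NME1, a nucleoside diphosphate kinase, and CMPK1, which phosphorylates UMP and CMP. NME1 differed from the parent by -0.30 ± 0.14 (SE, limma adjusted p = 0.291), and by -0.11 without SCP51 replicate 1. CMPK1 differed from SCP58 by -0.64 ± 0.19 (SE, limma adjusted p = 0.107) and gave 639, 1048 and 947 in SCP51, below all values of the other groups, which began at 1141. The CMPK1 difference from SCP58 was -0.42 without SCP51 replicate 1.

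Ribonucleotide reductase makes the deoxynucleotides on which TYMS depends, and its 3 genes were read with and without SCP51 replicate 1. With all arrays the 3 lay below 0 in both SCP51 comparisons, and without it 2 of the 3 did. RRM2, its brightest subunit, differed from SCP58 by -0.16 ± 0.15 (SE, limma adjusted p = 0.584), and by 0.02 without SCP51 replicate 1. RRM1 differed by -0.71 ± 0.44 (SE, limma adjusted p = 0.399), and its SCP51 arrays gave 458, 1794 and 1565, so the low value, as for TK1, was that of SCP51 replicate 1, without which the RRM1 difference was -0.09. The parent and SCP58 arrays of RRM1 lay between 1577 and 2153. RRM2B, the third gene, did not rest on that array. It differed from SCP58 by -0.59 ± 0.15 (SE, limma adjusted p = 0.0616), and by -0.59 without SCP51 replicate 1. Every SCP51 array of RRM2B lay below every SCP58 array. Against the parent the RRM2B difference was -0.10 ± 0.15 (SE, limma adjusted p = 0.732). SCP58 differed from the parent by 0.49 ± 0.15 (SE, limma adjusted p = 0.354) without overlap, so for RRM2B it was SCP58 that stood apart. RRM2B, like GGH, lies on chromosome 8, and the part of the chromosome was not tested.

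Of the 9 transporter and efflux genes tested, 3 lay above and 6 below 0 against the parent, with a median of -0.26 beside -0.10 over all genes. Without SCP51 replicate 1 the median was -0.16 beside -0.05. Against SCP58, 4 lay above and 5 below 0, with a median of -0.09 beside -0.11 over all genes. ABCC4, which pumps nucleotide analogues out of cells, differed from the parent by 0.25 ± 0.16 (SE, limma adjusted p = 0.426), and by 0.11 without SCP51 replicate 1. SLC29A1, the equilibrative carrier by which many nucleosides enter, gave 429, 358 and 428 in SCP51 and 614, 510 and 549 in the parent, which did not overlap. Its difference of -0.46 ± 0.18 (SE) did not pass the test (limma adjusted p = 0.202). The concentrative carriers SLC28A1, SLC28A2 and SLC28A3 did not pass the filter on low values.

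The uracil glycosylase UNG differed by 0.49 ± 0.32 (SE) from SCP58 and by -0.21 ± 0.32 (SE) from the parent, with limma adjusted p of 0.417 and 0.734, and by 0.87 and 0.17 without SCP51 replicate 1. SCP58 itself differed from the parent in UNG by -0.70 ± 0.32 (SE, limma adjusted p = 0.602), without overlap. TDG, which removes thymine and uracil from mismatches, differed by 0.07 ± 0.34 (SE) from SCP58 (limma adjusted p = 0.932), and by 0.37 without SCP51 replicate 1. UPB1, the last enzyme of uracil breakdown, differed from SCP58 by -0.25 ± 0.19 (SE, limma adjusted p = 0.482), and by -0.03 without that array. The carboxylesterases CES2 and CES1, which act on the prodrug capecitabine, differed from SCP58 by 0.01 ± 0.37 (SE) and 0.01 ± 0.13 (SE), with limma adjusted p of 0.989 and 0.976, and by 0.18 and 0.11 without that array.

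Because TK1, TYMS and DUT are made mostly in dividing cells, 15 genes of S phase and proliferation were measured beside them. In limma 0 of 15 were called in any comparison and 0 had an unadjusted p under 0.05. Of all genes 4.08% were called between SCP51 and SCP58, 2.96% between SCP51 and the parent and 0.14% between SCP58 and the parent. At such shares a count of 0 in so short a list says little. The median difference of the 15 was -0.14 against SCP58, beside -0.11 over all genes, and -0.15 against the parent, beside -0.10. Without SCP51 replicate 1 these medians were -0.02 and -0.10, beside -0.05 for each comparison over all genes. The summed signal of the 15 was 15892 to 19958 in SCP51, 18510 to 20753 in the parent and 16508 to 21399 in SCP58, so the groups overlapped. The brightest, PCNA, differed from the parent by -0.08 ± 0.06 (SE, limma adjusted p = 0.510). The part of cell division in the TYMS and DUT differences was not tested.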

How the data were processed

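Total RNA was hybridised to Affymetrix arrays, 3 for each of 3 groups. Each deposited value is a linear intensity from GCOS 1.4, per the submitters' processing notes. How the arrays were scaled, corrected for background and summarised over probes is not given in the sources used here. Detection calls were not used.

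Values below 1 (514, of which 3 were 0) were set to 1, log2 was taken, and the 62 control probe sets were left out. Probe sets had to lie above their array's median on at least 3 of the 9 arrays. Symbols were updated by Entrez identifier with RefSeq names of GRCh38.p14 (99.87% matched), and 41091 probe sets carried 1 symbol, 1801 several and 11721 none. The brightest probe set stood for a gene, which gave 13598 genes. The number of arrays limits the precision.

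All genes were fitted with limma 3.58.1 in R 4.3.3, with an intensity trend and 1 mean per group over 9 arrays. P-values were two-sided and adjusted by Benjamini-Hochberg over all genes, and the steps were tested on simulated data. The members and lists were chosen with earlier results of these data known. Named genes are all members, up to 4 called genes of a list or else its 2 brightest, and the 5 genes most like and the 5 most opposed to UPP1. RRM2B was named in addition, because its difference from SCP58 did not rest on SCP51 replicate 1. The proteins of the members are not shown. The alternatives were other filters, scalings and models and each array left out in turn. Figures used matplotlib 3.10.9.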

Additional observations from a re-analysis of the deposited data

How the results depend on the processing

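The log2 differences of UPP1 kept their sign under all 17 alternatives, from -0.69 to -0.02 for SCP58 against the parent, where the groups overlap. Several of the 17 could not change a UPP1 difference, so the number of alternatives is no measure of stability. Of 408 values of the other member differences, 406 moved by less than 1 SD within groups. The others, with the mean of probe sets, were -0.07 for TYMS and -0.47 for DUT against the parent. Many of the 408 could not differ from the main value, and the limit of 1 SD is wide for scattered genes. Against SCP58, DPYD ranged from -0.19 to 0.44 and TK1 from -1.30 to -0.35 within it. The count of genes called depended on the model. Against SCP58 it was 1527 with array weights, 210 with the replicate block and 134 with only the 6 arrays compared, and 137 to 1189 with 1 array left out. Against the parent these were 1356, 167, 151 and 122 to 724. For SCP58 against the parent they were 1351, 6, 31 and 0 to 75. Members called ranged from 0 to 2 in each SCP51 comparison with 1 array left out, were 0 against SCP58 with only the 6 arrays, and were 1 (UCK1) for SCP58 against the parent with array weights. Other pathway genes called were 7 against SCP58, 4 against the parent and 5 for SCP58 against the parent with array weights, 1 in each SCP51 comparison with no filter, with the replicate block or with only the 6 arrays, and 1 to 3 with 1 array left out. Deviations of same-numbered arrays correlated at -0.22 to 0.13 across genes, and those of differently numbered arrays at -0.12 to 0.12. UPP1 itself was lowest on replicate 1 in every group, and highest on replicate 2 in the parent and SCP58. Whether same-numbered arrays share a batch cannot be told from these values. Array weights gave SCP51 replicate 1 a weight of 0.17 and parent replicate 3 a weight of 5.23.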
